A study of Acanthocheilonema viteae with 2 samples.

Results

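The miR-100 family of a filarial worm was followed in the small RNA that adult Acanthocheilonema viteae, a nematode parasite of rodents, released into culture medium. Members were all entries of the deposited table with a nematode species code and miR-100, or a number from miR-51 to miR-56, in the name. This rule found 6 of 384 entries, all carrying the code bma of Brugia malayi, another filarial worm, and all numbered miR-100. There was 1 library of female secretions and 1 of male secretions, each from adult worms kept in culture without the other sex for up to 3 weeks, with no treatment or genotype in the labels. The RNA came from the pellet of an ultracentrifuge spin at 100000 g, a fraction rich in extracellular vesicles. The number of worms behind a library was not used here, since no label gives it. No replicate check and no test is possible with a single library per sex: each ratio compares these 2 libraries, and each interval covers counting error only.

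MicroRNAs guide silencing proteins to messenger RNAs mainly through the seed, the bases 2 to 8 of the mature strand. The miR-100 family is among the oldest of animals, and in Caenorhabditis elegans its members are called miR-51 to miR-56. There they act redundantly, and loss of the whole family is lethal to the embryo, with defects in the attachment of the pharynx. Filarial miR-100 has been described in worm vesicles and in the blood of infected hosts. In mammals the family is represented by miR-99 and miR-100.

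The 4 abundant members shared 1 seed and differed mostly in the middle and towards the 3′ end. They are shown 5′ to 3′ as deposited, in DNA letters, with the seed in capitals, because these differences are what separates the paralogs in the read counts.
bma-miR-100a_R+1: aACCCGTAgtttcgaacatgtgt
bma-miR-100d_R+1: tACCCGTAgctccgaatatgtgt
bma-miR-100b_R+1: aACCCGTAgatccgaacttgtgt
bma-miR-100c_R+2_1ss12CT: aACCCGTAgaattgaaatcgtgtt
Over the 23 positions that all 4 have, 15 were the same in every paralog, in runs at positions 2 to 9, 14 to 16 and 20 to 23, counted from 1 at the 5′ end. The paralogs called miR-100a and miR-100b were the closest pair, with 20 of 23 bases the same and the substitutions T10A, T12C and A18T, given as the base of miR-100a, the position and the base of miR-100b. From miR-100a to miR-100d there were 4 substitutions, A1T, T10C, T12C and C17T, so that miR-100d was the paralog beginning with T. The most distant pair was miR-100d and miR-100c, with 15 of 23 bases the same.

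The other 2 members were rare entries named as the 3′ arm of the miR-100a and miR-100d hairpins, the strand that is usually degraded when the 5′ strand is kept. They are shown with bases 2 to 8 in capitals, which are not the family seed.
bma-mir-100a-p3: aCATGTCGgttctcgggtcaa
bma-mir-100d-p3_1ss19AG: aCATATCGgtccacgggaga

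The mammal-named entries of the table that carried the family seed were 2, both miR-99. They are shown with the seed in capitals because miR-99a is nearly identical to miR-100b.
cgr-miR-99a-5p_R+1: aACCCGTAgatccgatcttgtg
cfa-miR-99b: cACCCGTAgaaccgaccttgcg
Between miR-100b and miR-99a, 21 of 22 bases were the same, and the substitution was A16T. The sequence of miR-100b without its last base is, as background, also that of mammalian miR-100. No mammal-named entry among the 384 carried the number miR-100. Worm and mammalian reads of that sequence cannot be told apart under the name miR-100b. By contrast, miR-99a differed from miR-100a at 4 positions, from miR-100d at 5 and from miR-100c at 6 of the 22 bases compared.

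Summed over entries, there were 292740 reads of female and 74881.3 of male secretions. Nematode-named entries and candidates without a species code, together called worm reads, summed to 273106 female and 36371 male reads. This split rests on names alone, and mammalian reads of a shared sequence were not separated from worm reads. The share under mammal names was 6.71% (female) and 51.4% (male). Among 10 mammalian source miRNAs (miR-21, miR-122, miR-451, miR-486, miR-143, miR-145, miR-223, miR-192, miR-194 and miR-215) 5 had an entry, and these summed to 1.40% of female and 14.1% of male reads. Entries for miR-451, miR-223, miR-192, miR-194 and miR-215 were not among those analysed here. The part of mammalian RNA in the ratios over all reads was not tested. The ratios of the family and its mature paralogs are therefore also given over worm reads.

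The miR-100 family was a larger part of female than of male secretions, whether set against all reads or against worm reads. Its 6 entries held 134747 female and 11511 male reads. These were 46.0% of all female reads (95% interval 45.8 to 46.2) and 15.4% of all male reads (15.1 to 15.6). Of worm reads they were 49.3% in the female library (49.2 to 49.5) and 31.6% in the male (31.2 to 32.1). The female-to-male ratio was 2.99 (2.94 to 3.05) over all reads; over worm reads it was 1.56 (1.53 to 1.59). Because the family is so large a part of the worm reads, it also weighs on its own denominator. Set against worm reads other than its own, it held 0.974 reads for each other worm read in the female library and 0.463 in the male, a ratio of 2.10 (2.05 to 2.15).

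The most abundant paralog of both libraries was miR-100a. It had 60686 female and 4973 male reads, or 20.7% of the female library (20.6 to 20.9) and 6.64% of the male (6.46 to 6.82). Among worm reads it took 22.2% (female) and 13.7% (male). Its female-to-male ratio was 3.12 (3.03 to 3.21) over all reads; over worm reads it was 1.63 (1.58 to 1.67). Of the 384 entries it ranked 1 in female and 2 in male secretions, where bma-miR-36c-3p_R-1_1ss20GA, of the embryonic miR-36 family, ranked 1.

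Close behind came miR-100d, the paralog that begins with T. It had 56234 female and 4428 male reads, or 19.2% of the female library (19.1 to 19.4) and 5.91% of the male (5.75 to 6.08). Its worm-read shares were 20.6% (female) and 12.2% (male), and it ranked 2 in female and 3 in male secretions. The ratio was 3.25 (3.15 to 3.35) over all reads; over worm reads it was 1.69 (1.64 to 1.74). For both leading paralogs the ratio passed 2-fold over all reads and not over worm reads. Over worm reads other than the family it passed 2-fold again, at 2.19 (2.13 to 2.26) for miR-100a and 2.28 (2.21 to 2.35) for miR-100d.

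The paralog miR-100b, whose sequence mammals share, was several times rarer. It had 10611 female and 1183 male reads, or 3.62% of the female (3.56 to 3.69) and 1.58% of the male library (1.49 to 1.67). Of worm reads it took 3.89% (female) and 3.25% (male). The ratio was 2.29 (2.16 to 2.44) over all reads; over worm reads it was 1.19 (1.12 to 1.27), and 1.61 (1.52 to 1.71) with the family left out of them. It ranked 5 in female and 16 in male secretions.

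The rarest of the mature paralogs was miR-100c. It had 7197 female and 927 male reads, or 2.46% of the female (2.40 to 2.52) and 1.24% of the male library (1.16 to 1.32). Over worm reads the libraries were level within counting error, with 2.64% in the female (2.58 to 2.70) and 2.55% in the male (2.39 to 2.72) and a ratio of 1.03 (0.965 to 1.11). With the family left out of the worm reads the ratio was 1.39 (1.30 to 1.495), on the female side. Over all reads the ratio was 1.99 (1.85 to 2.13). It ranked 7 in female and 23 in male secretions.

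**Figure D1:**
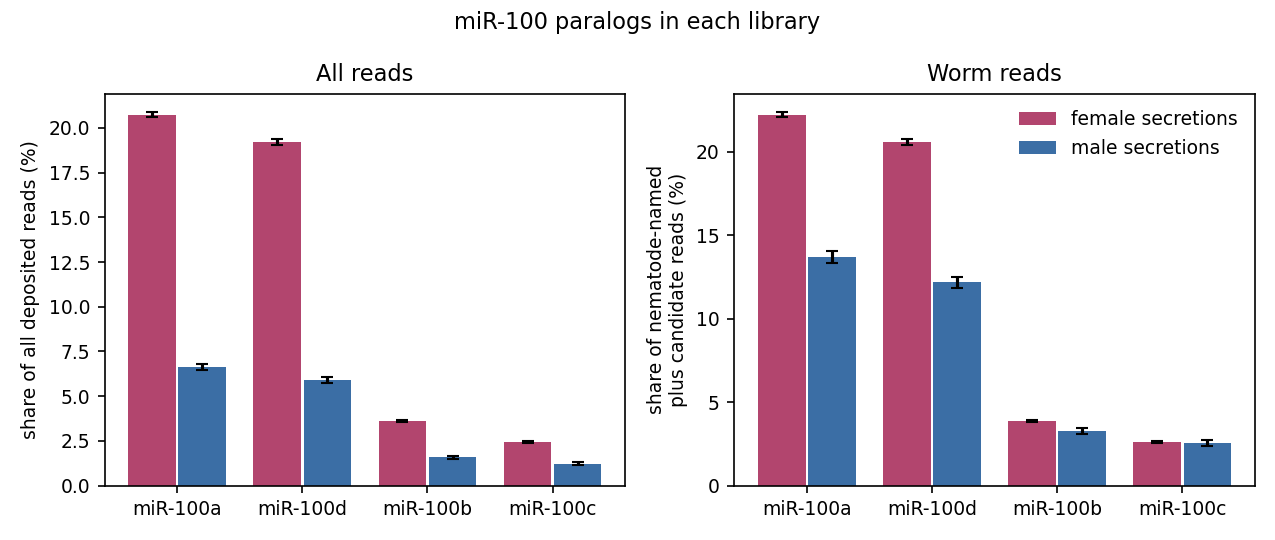
Share (%) of each mature miR-100 paralog in female and male secretions, over all deposited reads (left) and over worm reads, that is nematode-named plus candidate reads (right). Bars are 1 library each, and error bars are exact binomial 95% intervals (counting error only); miR-100a and miR-100d stand apart between the libraries in both panels, and miR-100c is level in the right panel, at 2.64% (female) and 2.55% (male), where the family is part of its own denominator; with the family left out of it the ratio was 1.39.

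The order of the paralogs was the same in both libraries, from miR-100a through miR-100d and miR-100b to miR-100c, and neighbours differed by more than counting error. For each read of miR-100d there were 1.08 reads of miR-100a in the female library (1.07 to 1.09) and 1.12 in the male (1.08 to 1.17). For each read of miR-100c there were 1.47 reads of miR-100b in the female (1.43 to 1.52) and 1.28 in the male library (1.17 to 1.39). With no replicate, the spread between cultures behind these orders is unknown.

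Within the family, miR-100a and miR-100d took more of the female reads, and miR-100b and miR-100c more of the male reads. These shares do not depend on how the libraries are scaled, nor on mammal-named reads, although mammalian miR-100 would be counted in the share of miR-100b. Of the family, miR-100a made up 45.0% in the female (44.8 to 45.3) and 43.2% in the male library (42.3 to 44.1). The share of miR-100d was 41.7% in the female (41.5 to 42.0) and 38.5% in the male library (37.6 to 39.4). The share of miR-100b was 7.87% in the female (7.73 to 8.02) and 10.3% in the male library (9.73 to 10.8). The share of miR-100c was 5.34% in the female (5.22 to 5.46) and 8.05% in the male library (7.56 to 8.57). These shares are parts of a whole, so they do not move separately, and their intervals cover counting error only. In percentage points the shifts were small. Female minus male, they were 1.83 for miR-100a, 3.27 for miR-100d, -2.40 for miR-100b and -2.71 for miR-100c. Relative to the share itself, the shifts of miR-100b and miR-100c were the larger ones.

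**Figure D2:**
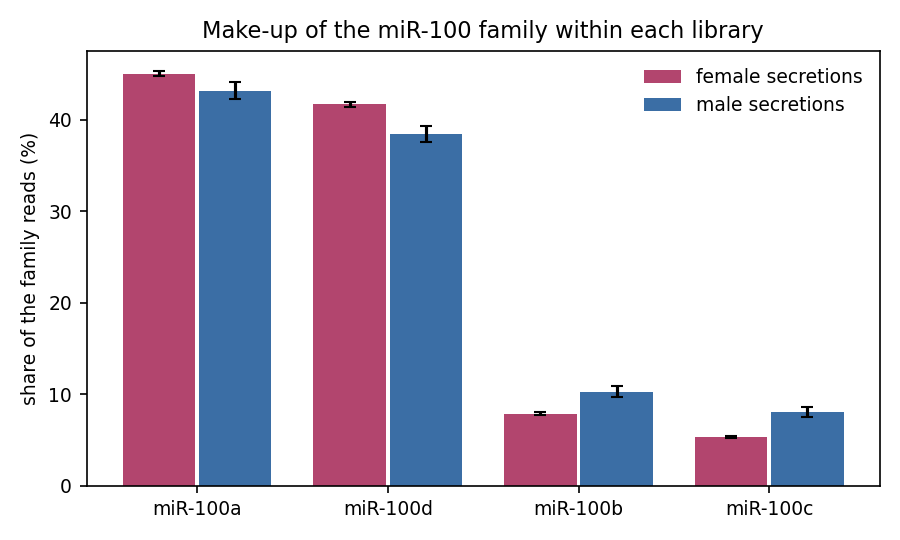
Share (%) of each mature paralog among all miR-100 family reads, in female and in male secretions. Bars are 1 library each with exact binomial 95% intervals (counting error only); miR-100a and miR-100d are higher in the female bars, and miR-100b (7.87% and 10.3%) and miR-100c (5.34% and 8.05%) are higher in the male bars.

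Set against each other, miR-100a and miR-100d kept nearly the same proportion in both libraries, and miR-100b and miR-100c were lower relative to them in the female library. The ratio of miR-100a to miR-100d in the female library, divided by that in the male, was 0.961 (0.921 to 1.00), an interval that reaches 1. The same quotient was 1.36 (1.27 to 1.45) for miR-100a over miR-100b and 1.57 (1.46 to 1.69) for miR-100a over miR-100c. For miR-100d it was 1.42 (1.32 to 1.52) over miR-100b and 1.64 (1.52 to 1.76) over miR-100c. Between miR-100b and miR-100c it was 1.16 (1.05 to 1.27). Summed, miR-100a plus miR-100d held 6.57 reads for each read of miR-100b plus miR-100c in the female library and 4.46 in the male. This grouping was made after the values were seen, and it does not follow sequence likeness, since the closest sequence to miR-100a was miR-100b. Mammalian miR-100 reads would be counted under miR-100b. Their part in the quotients that involve miR-100b, in the summed ratios and so in this grouping was not tested. The quotients of miR-100a and miR-100d over miR-100c do not involve miR-100b.

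The mammal-named relatives lay on the other side over all reads, over worm reads and on the authors' normalized values. The median-of-ratios scale sets the median of the 257 entries read in both libraries to 1, and 171 of these were mammal-named. Mammal-named entries thus largely set that scale, and on it miR-99a had a ratio of 1.26 (1.13 to 1.40). With TMM scaling it was level within counting error, at 1.02 (0.914 to 1.14). The entry for miR-99a had 576 female and 780 male reads, so that its share of all reads was 5.29 times as high in male secretions (female-to-male ratio 0.189, 0.169 to 0.211). The entry for miR-99b had 86 female and 244 male reads, with a share 11.1 times as high in male secretions (ratio 0.0902, 0.0697 to 0.116). The median of the 171 mammal-named entries with reads from each sex lay toward the male side by 8.80-fold over all reads, 16.9-fold over worm reads and 1.88-fold on the authors' normalized values. For each read of miR-99a there were 18.4 reads of miR-100b in the female library (16.9 to 20.1) and 1.52 in the male (1.38 to 1.66). What part of its 1183 male reads came from mammalian miR-100 was not tested.

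Counted by seed alone, the family was the leading group of both libraries. All entries with the seed ACCCGTA, mammal-named ones included, took 46.2% of female and 16.7% of male reads, and no other seed summed to more in either library. The seed AGCTTAT of mammalian miR-21 ranked 2 in the male library, with 1.08% of female and 11.1% of male reads. Within the reads carrying the family seed, mammal-named entries held 0.489% in the female (0.452 to 0.528) and 8.17% in the male library (7.70 to 8.66). With miR-100b counted on that side as well, these shares were 8.33% (female) and 17.6% (male). The remaining reads of this seed, 91.7% (female) and 82.4% (male), lay on miR-100a, miR-100d and miR-100c.

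**Figure D3:**
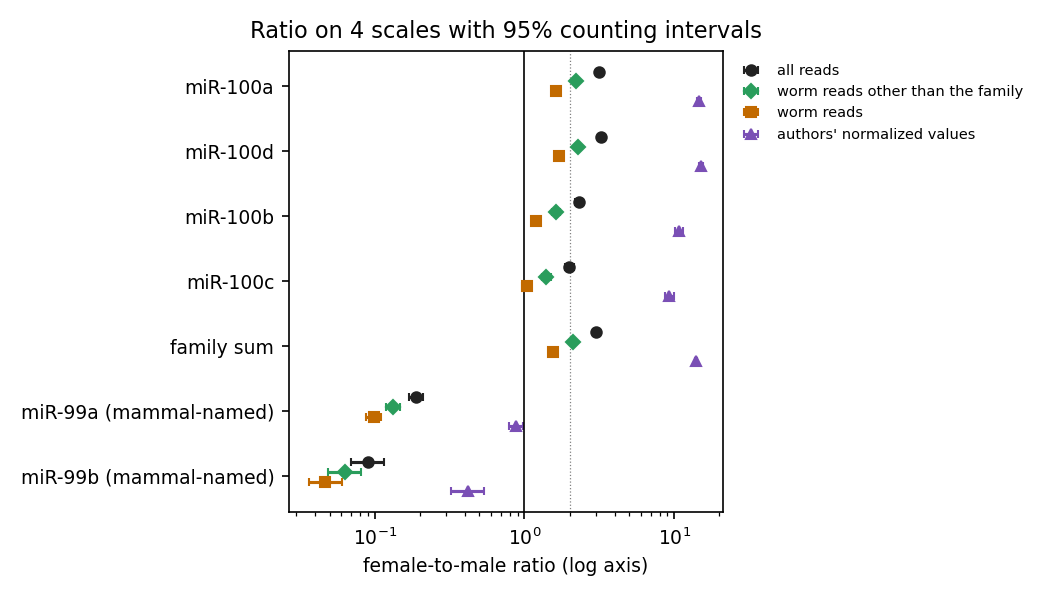
Female-to-male ratio (log axis) of each mature paralog, the family sum and the mammal-named miR-99 entries, over all reads, over worm reads other than the family, over worm reads and on the authors' normalized values. Points compare 1 library per sex with exact 95% counting intervals, the solid line marks a ratio of 1 and the dotted line a ratio of 2; the family sum lies at 2.99, 2.10, 1.56 and 14.0, whereas both miR-99 entries lie below 1 on all 4 scales drawn, and miR-99a reaches 1.26 and 1.02 on the median-of-ratios and TMM scales, which are not drawn.

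Size calls in the family depended on the scale. A call required a 2-fold difference in share, and at least 10 reads in one of the libraries. Of the 6 members 5 met this minimum. Over all reads, 3 of these 5 (miR-100a, miR-100d and miR-100b) were called higher in the female library, where 18.5% of all 287 eligible entries and 35.7% of the 112 eligible worm entries were. None of the 5 was called higher in the male library, where 62% of all and 18.8% of worm entries were. Over worm reads no member was called in the female direction, against 5.57% of all and 8.04% of worm entries, and none in the male direction, against 68.6% and 33.9%. That count of 0 holds with the family in its own denominator. Over worm reads other than the family, a scale applied to the calls after seeing the data, 2 members (miR-100a and miR-100d) were called in the female direction, against 10.5% of all and 18.8% of worm entries. None was in the male direction, against 65.2% and 26.8%. On the authors' normalized values all 5 were called in the female direction, as were 39.7% of all and 85.7% of worm entries, so that count is near the background of worm entries. In the male direction none was, against 30.3% and 5.36%. One of the 5 called on the authors' values, the 3′ arm of miR-100d, was at 0 in the male library and was set to a floor of 3 reads.

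Beside other worm miRNAs the ratios of the family were high but not extreme. Over all reads the 4 mature paralogs had a median ratio of 2.71, and the 86 worm entries read in both libraries had 1.16. Over worm reads the medians were 1.41 for the paralogs and 0.605 for the worm entries. Of 79 other eligible worm entries read in both libraries, 11 had a higher ratio than miR-100a and 11 a higher one than miR-100d. For miR-100b this number was 16 and for miR-100c it was 24. Among 27 other worm entries with at least 1000 female reads, the 3 nearest to the family sum in log2 ratio were bma-miR-36a_R+1_1ss20TC (2.87 over all reads), bma-miR-5866 (3.34) and bma-miR-92_R+2 (2.65). The likeness is over 2 libraries only.

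**Figure D4:**
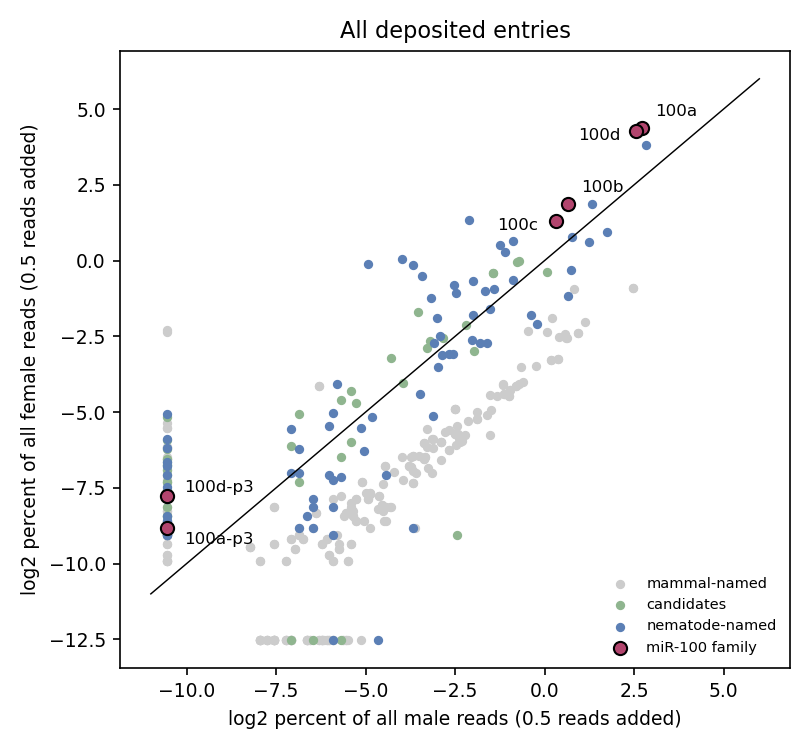
Share of each of the 384 entries in the female (y axis) and male library (x axis), as log2 percent of all reads with 0.5 reads added, coloured by kind of name, with miR-100 family members outlined and labelled. The line marks equal shares; the 4 mature paralogs lie above it at the abundant end, and the 3′ arms lie at the left edge, where the male library has 0 reads.

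Next in abundance among worm families was miR-36, needed by C. elegans embryos. The miR-36 set was taken by name. Its leading entry, bma-miR-36c-3p_R-1_1ss20GA, held 41634 female and 5292 male reads, and all entries with its seed, CACCGGA, summed to 46034 and 5844. The others with this seed have other names and were left out. Within the set by name the seeds differed. The entry bma-miR-36a_R+1_1ss20TC (4534 female and 404 male reads) has CACCGGG. The entry bma-mir-36a-2-p5_1ss13CT (29 and 0 reads) has AGGATGT. In the female library there were 2.92 reads of the miR-100 family for each read of the 3 entries of the miR-36 family (2.89 to 2.95). In the male library there were 2.02 (1.96 to 2.09), so the quotient of the libraries was 1.44 (1.40 to 1.49). By paralog, this quotient was 1.505 (1.45 to 1.57) for miR-100a and 1.57 (1.502 to 1.63) for miR-100d. It was 1.11 (1.03 to 1.18) for miR-100b. For miR-100c it was 0.957 (0.889 to 1.03), an interval that includes 1. The gap between the families thus lay mostly with miR-100a and miR-100d.

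The 3′ arms were barely read. The entry bma-mir-100a-p3 had 6 female and 0 male reads, and bma-mir-100d-p3_1ss19AG had 13 female and 0 male reads. In the female library these were 0.00989% of the reads of both arms for miR-100a (0.00363 to 0.0215) and 0.0231% for miR-100d (0.0123 to 0.0395). At these shares the male library would have held 0.492 reads of the first and 1.02 of the second, so a difference between the libraries was not detectable at this depth. The count of 0 allows up to 0.0603% for miR-100a and 0.0678% for miR-100d in the male library. A 3′ arm of miR-100b or miR-100c was not analysed here. Folded with RNAduplex, bma-mir-100a-p3 formed 16 base pairs with miR-100a at -19.0 kcal per mol, the weakest pairing of the 4 paralogs by energy. It reached -19.8 kcal per mol with miR-100b and with miR-100d, and -20.0 with miR-100c. For bma-mir-100d-p3_1ss19AG the lowest energy was with miR-100d, at -18.6 kcal per mol and 15 base pairs, against -11.6 to -17.9 for the other 3 paralogs. Pairing therefore does not assign the first of these arms to a single paralog.

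The mature paralogs also shared features of length and ends. Entries for miR-100a, miR-100d and miR-100b were 23 nt long, and miR-100c was 24 nt. Of all worm reads on 23 nt entries, the family held 87.0% (female) and 78.5% (male). Other worm reads were on 23 nt entries in 13.8% of the female and 11.6% of the male cases, and on 22 nt entries in 30.8% (female) and 38.4% (male). The suffixes R+1 and R+2 read as 1 or 2 bases more at the 3′ end than the database sequence, though the sources used here do not define them. Read that way, all 4 mature paralogs were longer than a database form of 22 nt, and the added bases were T in all 4. Of the 80 other nematode-named entries 17 had such an addition, with nothing but T added in 6. The suffix 1ss12CT of miR-100c reads as the substitution C12T, and its sequence has T there. No second entry analysed here began with the same 15 bases as miR-100a, miR-100d or miR-100c, and the one that did for miR-100b was miR-99a. Shorter or longer forms of a paralog can therefore not be compared between the libraries.

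By first base, the family was divided between A and T. The first base is that of the sequence given for an entry, not of single reads. Family reads were on entries beginning with A in 58.3% of the female and 61.5% of the male cases. They were on entries beginning with T in 41.7% (female) and 38.5% (male), all from miR-100d. Other worm reads were on entries beginning with A in 8.21% of the female and 7.17% of the male cases, and with T in 84.2% (female) and 85.2% (male). With the family included, reads on entries with T first were 63.3% (female) and 70.4% (male) of worm reads.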

How the data were processed

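Small RNA from female and male secretions was measured in 1 library each. The deposited table holds raw values, named so in the file header, which are estimated counts: some entries hold parts of reads, but no family member does and none shares its sequence with another entry. The deposited normalized column, a signal, equals the raw column times 1.09 (female) or 0.915 (male). No label or header names an aligner, database release or genome, so these are not given in the sources. Columns of per-sample values left unused numbered 0.

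Shares have exact binomial (Clopper-Pearson) 95% intervals and ratios exact conditional binomial 95% intervals, on counts rounded to whole numbers (scipy 1.17.1). Quotients between paralogs are conditional odds ratios. Lacking molecular identifiers, reads may be copies of 1 molecule, so intervals and floors cover counting error only; the floor of 3 reads is 0.00102% (female) or 0.00401% (male) of a library. TMM came from edgeR 4.0.16 and duplexes from RNAduplex 2.7.2. Nematode codes were bma, asu, cel, hpo, prd and str.

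Named entries were all family members, entries sharing their seed, mammal-named miR-99 and miR-100 entries, the miR-36 family, and the 3 worm entries nearest to the family sum in ratio. The seed of miR-21 was named after their values were seen. The members and lists were chosen with earlier results of these data known.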

Additional observations from a re-analysis of the deposited data

How the results depend on the processing

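The size of the female-to-male ratio of the family sum depended on the scale, and its direction did not under the alternatives run. It was 2.99 over all reads, 1.56 over nematode-named plus candidate reads and 2.10 over those reads without the family. It was 14.0 on the authors' normalized values, 16.2 with TMM and 19.96 with median-of-ratios scaling. All worm reads summed had a ratio of 1.92 over all reads, 8.97 on the authors' values, 10.4 with TMM and 12.8 with median-of-ratios. A change of scale multiplies the ratio of every entry by the same constant, so these scales are not separate tests of the direction. Over all reads the family ratio was 2.90 without miR-100a, 2.84 without miR-100d, 3.07 without miR-100b and 3.08 without miR-100c. With every entry of the family seed, mammal-named ones included, it was 2.76, an alternative chosen after seeing the data. Both alternatives for the paralog shares within the family were uninformative, since no member repeats a sequence and membership by seed drops 19 reads. Family members past 2-fold on the female side numbered 3 over all reads, 0 over worm reads and 2 over worm reads without the family. They numbered 5 of the 5 eligible on the authors' values, where 85.7% of the 112 eligible worm entries and 39.7% of all 287 passed too. With TMM and with median-of-ratios they also numbered 5. One of these 5, the 3′ arm of miR-100d, had 0 male reads and was set against the floor of 3 reads. The worm entries past 2-fold were not counted with TMM or median-of-ratios, so the counts of 5 there have no worm background. Of all 287 entries eligible at 10 reads, 53 passed 2-fold on the female side over all reads. This became 16 over worm reads and 30 over worm reads other than the family (added after seeing the data). It became 114 on the authors' values, 119 with median-of-ratios and 117 with TMM. With a minimum of 100 reads, which leaves another set of eligible entries, it was 28. In the male direction 178 became 87 on the authors' values, 36 with median-of-ratios, 64 with TMM and 65 with at least 100 reads. No paired analysis was possible because there is 1 library per sex, and no replicate could be left out. Depth limits the 3′ arms, where the male library has 0 reads.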
